A study of Mus musculus with 7 samples.

Results

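The core proteins of the spliceosome were followed in sorted mouse erythroblasts that lacked or carried Sod2, which encodes the mitochondrial superoxide dismutase. They were taken as the genes whose symbol, given alone to an array probe set, starts with Snrp, Sf3a, Sf3b, Lsm or Prpf, or is U2af1, U2af2, Snw1, Eftud2, Ddx23, Dhx15, Cdc5l or Plrg1. The rule found 119 of the 45037 probe sets tested, and these measured 50 of the 18193 genes on the array that have a probe set of their own. Each gene was read from its brightest probe set, the one with the highest mean over the 7 arrays. Snrpd1, Snrpd2, Snrpa and Lsm5 belong to the same complexes but have no probe set by this rule and were not analysed here.

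Erythroblasts came from 3 Sod2-/- samples (numbers 31, 35 and 39) and 4 Sod2+/+ samples (numbers 17, 29, 33 and 37). The donors were littermate embryos at E13.5-16.5 (days of embryonic development), from matings of B6 mice heterozygous for the Sod2tm1Cje allele, in which exon 3 of Sod2 is deleted. Their fetal liver cells were transplanted into lethally irradiated female C57BL/6 Ly5.1 mice 11 to 15 weeks of age, so Sod2 was missing from the transplanted blood-forming cells and not from the host. Marrow cells of medium to large size that excluded propidium iodide and carried both TER-119 and CD71 were sorted. No gate on the donor's Ly5.2 is given for this sort, and residual host erythroblasts cannot be told apart from donor cells. The gate spans several stages of erythroblast maturation. In such bulk samples fewer cells of a type or stage and less RNA per cell also cannot be told apart. The sources do not tie each array to its own animal, and the p-values therefore cover the spread between these samples and no more. 1 further Sod2-/- array was not analysed here. Sod2 itself is probed in part beyond that exon, and its signal was not used to check the genotype.

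The spliceosome cuts introns out of pre-mRNA and is built anew on each intron from small nuclear ribonucleoproteins (snRNPs), each an RNA with its own proteins. A ring of Sm proteins sits on the U1, U2, U4 and U5 RNAs, and a related ring of Lsm proteins sits on U6. U1 marks the start of the intron, U2AF and U2 with its SF3A and SF3B subunits mark its far end, and the U4/U6 and U5 particles and the Prp19 complex then form the catalytic core. In human myelodysplasia, mutations in SF3B1 are closely tied to ring sideroblasts, erythroblasts with iron-laden mitochondria, and U2AF1 and PRPF8 are mutated in other patients. Mice carrying Sod2-/- blood cells are used as a model of sideroblastic anemia. Whether the levels of spliceosome genes differ in their erythroblasts is the comparison made here.

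Of the 50 genes, 16 were lower in Sod2-/- than in Sod2+/+ erythroblasts at an adjusted p under 0.05 and 0 were higher (limma, Benjamini-Hochberg adjustment over all 45037 probe sets). Over all 18193 genes 4.47% were lower and 0.412% were higher by the same criterion. Those 16 genes comprised 4 of 6 Sm ring genes, 6 of 13 genes of U2 and U2AF, 3 of 4 genes of the Prp19 complex, 2 of 12 Lsm genes and 1 of 4 genes of activation and release. No gene of the U1 snRNP (0 of 3) or of the U4/U6 and U5 snRNPs (0 of 8) passed. All log2 values below are the deposited expression values, and every difference is Sod2-/- minus Sod2+/+.

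The differences were modest in size. The fold change was below 0 for 43 of the 50 genes and above 0 for 7, with a median of -0.42 and an interquartile range of -0.60 to -0.21, whereas the median over all genes was 0.02. With a fold of at least 1.5 required as well, 10 members were lower, against 2.80% of all genes. The 2 genotypes did not overlap, all Sod2-/- values lying below all Sod2+/+ values, for 29 members, and no member was higher in that way. For all genes those shares were 14.8% lower and 7.19% higher. At an unadjusted p under 0.05, 36 members were lower and 0 higher, against 18.4% and 6.68% of all genes.

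**Figure D1:**
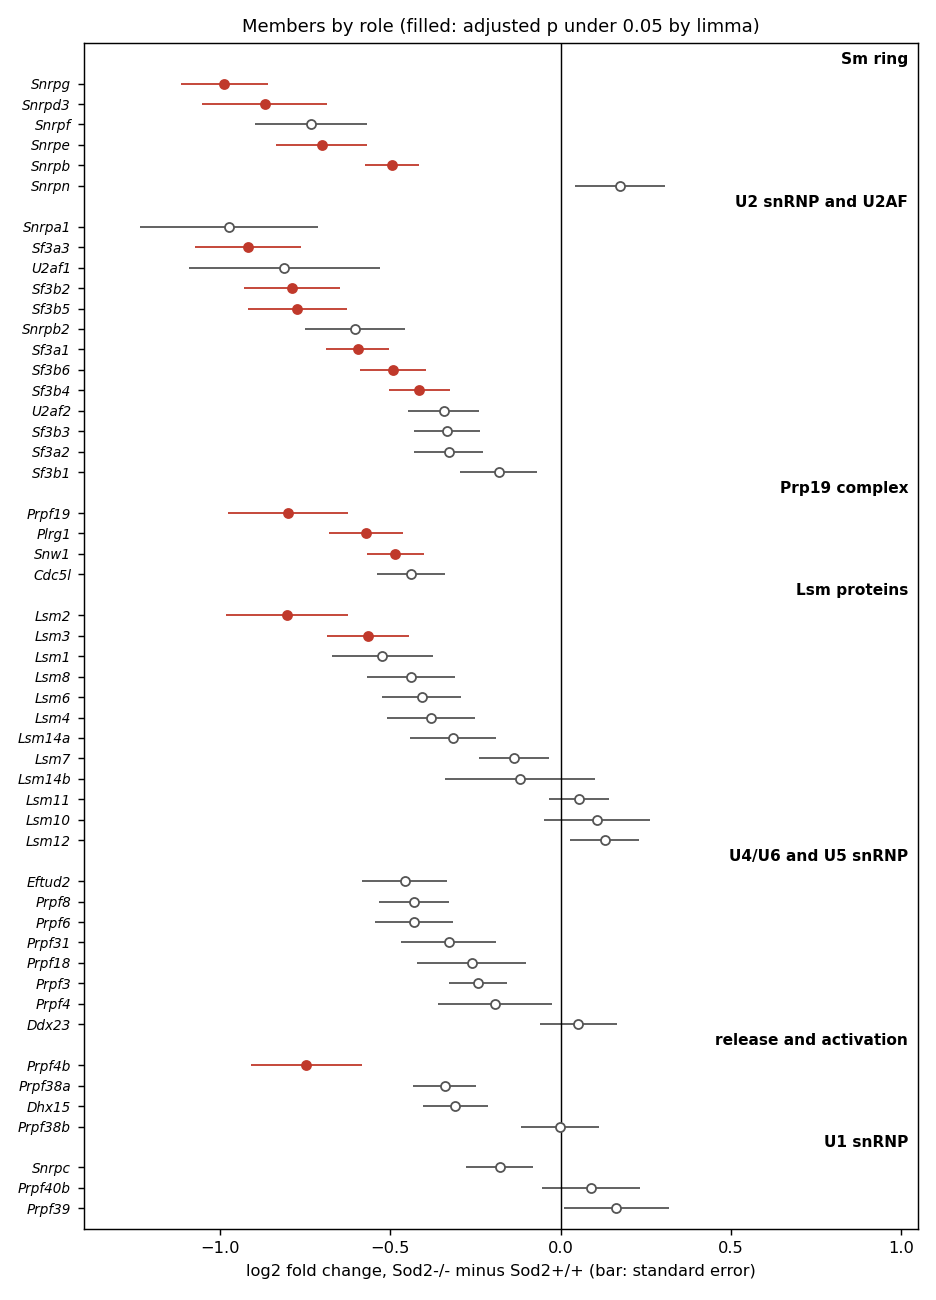
Log2 fold change (Sod2-/- minus Sod2+/+) of the 50 spliceosome genes, grouped by role, on the brightest probe set of each gene. Bars are standard errors from limma, and filled points are the 16 genes with an adjusted p under 0.05, all of them below 0.

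The count of genes past the threshold depended on single arrays, while the sign of the median did not. Without Sod2+/+ sample 17, 29, 33 or 37 it was 7, 2, 13 or 1, and without Sod2-/- sample 31, 35 or 39 it was 10, 0 or 2. The median fold change of the members stayed between -0.47 and -0.35 in these 7 fits, and no member was higher in any of them. Over all genes the share that was lower ran from 0.352% to 4.09% in the same fits. Fluidics station 1 had processed Sod2-/- sample 31 and Sod2+/+ samples 17 and 29, and station 2 the other 4 arrays. Within station 1, where sample 31 was the only Sod2-/- array, the median was -0.36. Within station 2 it was -0.40 with 0 members past the threshold. With the station as a block 9 members were lower, against 2.7% of all genes. Of the 2 chip lots, one held every Sod2+/+ array and Sod2-/- sample 35. The other held Sod2-/- samples 31 and 39 and no Sod2+/+ array. With the lot as a block the genotypes were therefore compared through Sod2-/- sample 35 alone, and the median was -0.50. Lot and genotype cannot be told apart for samples 31 and 39.

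Brightness moved with the fold change. Of genes with a mean log2 value from 2 to 6, 1.17% were lower, against 12.2% of those from 6 to 8 and 12.8% of those from 8 to 11. Most spliceosome genes are bright, and the 3 spans held 8, 21 and 21 of them, of which 1, 6 and 9 were lower. Their median fold change in the 2 brighter spans was -0.43 and -0.44, against -0.21 and -0.27 for all genes of those spans. In the dim span it was -0.03, against 0.05. The 95th percentile of the array values ran from 8.20 to 8.42 in Sod2-/- samples and from 8.42 to 8.71 in Sod2+/+ samples, although the array medians were alike (4.45 to 4.54 over all arrays).

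After a further quantile normalization, which gives every array the same distribution, 9 members were lower, against 2.78% of all genes, and all 9 were among the 16. The median of the members was then -0.19. In the brighter spans it was -0.19 in both, against -0.02 and -0.05 for all genes. Of the members in those spans 4 of 21 and 5 of 21 were lower, against 6.67% and 5.93% of all genes there. The members thus lay below genes of like brightness under both scalings, by a smaller amount after quantile normalization.

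**Figure D2:**
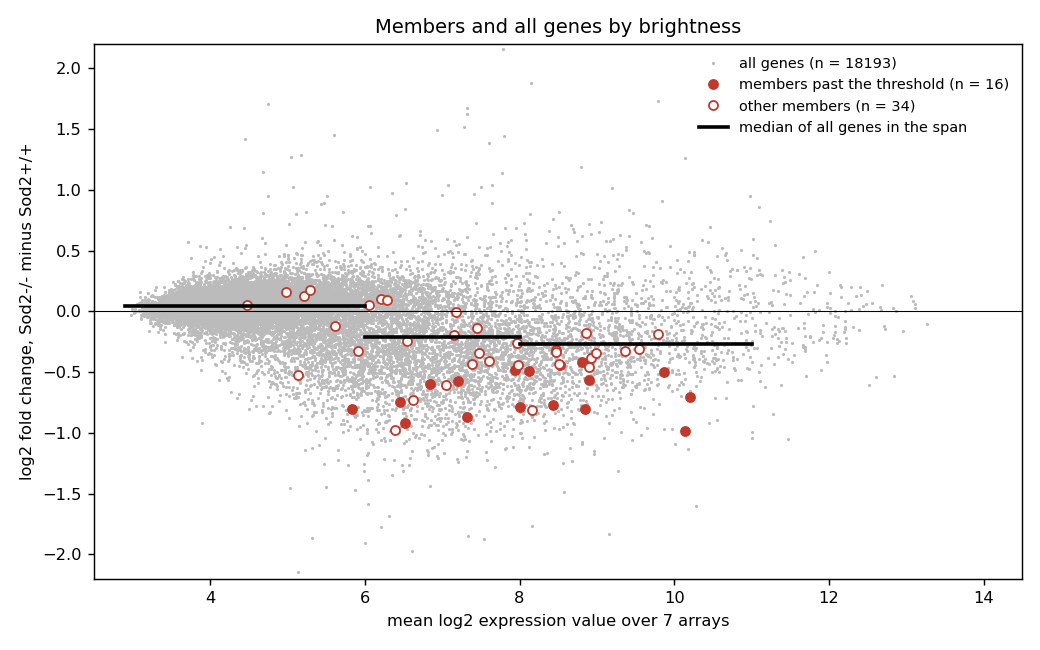
Log2 fold change (Sod2-/- minus Sod2+/+) against the mean log2 expression value over the 7 arrays, for all 18193 genes (grey), the 16 spliceosome genes past the threshold (filled) and the other 34 (open). Black lines are the medians of all genes in each span of brightness, at 0.05, -0.21 and -0.27, and 3 genes lie outside the axes.

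The Sm ring was the group with the largest median difference, at -0.72. Its proteins are loaded onto snRNAs in the cytoplasm by the SMN complex and stay with them for life. Snrpg, which encodes SmG, had log2 values of 9.72, 9.64 and 9.36 in Sod2-/- samples 31, 35 and 39, against 10.43, 10.81, 10.38 and 10.63 in Sod2+/+ samples 17, 29, 33 and 37. Every Sod2-/- value lay below every Sod2+/+ value, at a log2 fold change of -0.99 ± 0.13 (SE), adjusted p = 0.0133, or 1.98-fold lower. This gene kept its call without each array in turn except Sod2-/- sample 35, where its adjusted p was 0.05, and it passed in 14 of the 21 alternative fits, more than any other member.

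Snrpd3 (SmD3) read 7.13, 6.45 and 6.91 in Sod2-/- samples 31, 35 and 39, against 7.68, 8.07, 7.49 and 7.54 in Sod2+/+ samples 17, 29, 33 and 37. Sod2-/- sample 35 was the lowest, and the genotypes did not overlap (a log2 fold change of -0.87 ± 0.18 (SE), adjusted p = 0.043). Its 2 dimmer probe sets pointed the other way, at 0.31 and 0.20, and neither passed the threshold. Snrpe (SmE), the brightest member with a mean log2 value of 10.2, had 9.92, 9.65 and 9.85 in Sod2-/- samples 31, 35 and 39, against 10.29, 10.83, 10.35 and 10.56 in Sod2+/+ samples 17, 29, 33 and 37. This was a log2 fold change of -0.70 ± 0.13 (SE), adjusted p = 0.0339. Snrpb, whose transcript encodes the SmB proteins, differed by less, -0.49, but its replicates were tight (SD 0.12 in Sod2-/- and 0.07 in Sod2+/+ samples, n = 3 and 4) and its adjusted p was 0.0231. Snrpf (SmF) was at -0.73 with an adjusted p that rounds to 0.05 and lay just above the threshold. The sixth gene, Snrpn, encodes the SmN protein of brain. It was dim and had 0.17 (adjusted p = 0.521).

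Among the proteins of U2, all 13 fold changes were below 0, and the SF3A and SF3B subunits, which clamp U2 onto the branch point, held all 6 of the genes past the threshold. Sf3a3 had log2 values of 6.16, 5.88 and 5.97 in Sod2-/- samples 31, 35 and 39, against 6.74, 7.32, 6.64 and 6.98 in Sod2+/+ samples 17, 29, 33 and 37. The 3 Sod2-/- values lay close together, below all Sod2+/+ values, at a log2 fold change of -0.92 ± 0.16 (SE), adjusted p = 0.0264, or 1.89-fold lower. Its dimmer probe set had -0.16, with overlapping genotypes, and did not pass (adjusted p = 0.548). Sf3a1, another subunit of SF3A, had 6.59, 6.42 and 6.49 in Sod2-/- samples 31, 35 and 39, against 7.18, 7.25, 6.93 and 7.02 in Sod2+/+ samples 17, 29, 33 and 37. It differed by -0.60 ± 0.09 (SE) with adjusted p = 0.0221. Of its 4 probe sets only this 1 passed, and the range over them was -0.60 to -0.004. On its brightest probe set Sf3a2, the remaining SF3A subunit, had -0.33 and did not pass. Its dimmer probe set did, with 6.04, 6.14 and 6.04 in Sod2-/- samples 31, 35 and 39, against 7.07, 7.09, 6.67 and 6.92 in Sod2+/+ samples 17, 29, 33 and 37.

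Of the SF3B subunits, Sf3b2 read 7.93, 7.33 and 7.40 in Sod2-/- samples 31, 35 and 39, against 8.29, 8.45, 8.22 and 8.39 in Sod2+/+ samples 17, 29, 33 and 37. Sod2-/- samples 35 and 39 were lower than sample 31, and all 3 were below the Sod2+/+ range (a log2 fold change of -0.79 ± 0.14 (SE), adjusted p = 0.0286). Sf3b5, a small subunit of the same complex, gave 8.28, 7.75 and 7.95 in Sod2-/- samples 31, 35 and 39, against 8.84, 8.98, 8.49 and 8.75 in Sod2+/+ samples 17, 29, 33 and 37. The difference was -0.77 with adjusted p = 0.0328. Sf3b6, the subunit that touches the branch point adenosine, and Sf3b4 were at -0.49 (adjusted p = 0.0366) and -0.41 (adjusted p = 0.0476). The scaffold subunit Sf3b3 had -0.33 and did not pass (adjusted p = 0.102).

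Sf3b1, the human counterpart of which is mutated with ring sideroblasts, was among the bright members and differed least of the 9 SF3A and SF3B genes. Its log2 values were 9.73, 9.56 and 9.74 in Sod2-/- samples 31, 35 and 39, against 9.98, 10.06, 9.62 and 9.79 in Sod2+/+ samples 17, 29, 33 and 37. The genotypes overlapped, at a log2 fold change of -0.18 ± 0.11 (SE), adjusted p = 0.424. None of its 4 probe sets passed the threshold, and their fold changes ran from -0.37 to -0.18.

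U2af1, the small U2AF subunit that reads the last bases of the intron, had 8.28, 7.12 and 7.68 in Sod2-/- samples 31, 35 and 39, against 8.02, 8.94, 8.44 and 8.62 in Sod2+/+ samples 17, 29, 33 and 37. The fold change was larger, -0.81, but the Sod2-/- values spanned more than 1 log2 unit and overlapped with the Sod2+/+ values (adjusted p = 0.154). Without Sod2-/- sample 31 the fold change was -1.10 and without sample 35 it was -0.52. U2af2, the large subunit that binds the polypyrimidine tract, was at -0.34 (adjusted p = 0.114). Snrpa1 and Snrpb2, which encode the U2 proteins A′ and B′′, had -0.97 (adjusted p = 0.0819) and -0.60 (adjusted p = 0.0644) on their brightest probe sets. Both passed on a dimmer probe set, at -0.80 and -0.79.

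The Prp19 complex, which holds the catalytic core together after U4 has left, was lower in 3 of its 4 genes. Prpf19, its ubiquitin ligase, had 8.33, 8.02 and 8.80 in Sod2-/- samples 31, 35 and 39, against 8.92, 9.29, 9.21 and 9.31 in Sod2+/+ samples 17, 29, 33 and 37. All Sod2-/- values were below all Sod2+/+ values, with sample 39 the nearest (a log2 fold change of -0.80 ± 0.18 (SE), adjusted p = 0.0478). Of its 5 probe sets 3 passed, and the range over them was -1.02 to 0.26, the positive value coming from the dimmest one. Plrg1, a WD repeat partner of Prpf19, and Snw1, the SKIP protein of the active spliceosome, were at -0.57 (adjusted p = 0.0342) and -0.49 (adjusted p = 0.0267). Cdc5l, the scaffold of the complex, had -0.44 and just missed the threshold (adjusted p = 0.0521).

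The Lsm genes serve several machines, and 2 of 12 were lower. The rule found 6 genes of the Lsm2 to Lsm8 ring that binds U6, and all 6 were below 0, with a median of -0.42. Lsm2 had 5.57, 5.53 and 5.02 in Sod2-/- samples 31, 35 and 39, against 5.95, 6.34, 5.94 and 6.49 in Sod2+/+ samples 17, 29, 33 and 37. It was the member nearest the threshold among those past it, at a log2 fold change of -0.80 ± 0.18 (SE), adjusted p = 0.0496, and it lost its call without each of the 7 arrays. Lsm3 gave 8.77, 8.27 and 8.66 in Sod2-/- samples 31, 35 and 39, against 9.07, 9.25, 9.06 and 9.15 in Sod2+/+ samples 17, 29, 33 and 37, a log2 fold change of -0.57 ± 0.12 (SE), adjusted p = 0.043. Lsm1, which replaces Lsm8 in the ring that acts in mRNA decay, was at -0.52 (adjusted p = 0.0919). The relatives outside these rings were Lsm10 and Lsm11 of the U7 particle, which processes histone mRNA, Lsm12, and Lsm14a and Lsm14b of cytoplasmic RNA granules. They had fold changes from -0.31 to 0.13 and none passed.

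In the group of activation and release, Prpf4b, a protein kinase needed to form the active spliceosome, was the only one of 4 genes past the threshold. It had 6.15, 5.90 and 6.03 in Sod2-/- samples 31, 35 and 39, against 6.47, 7.01, 6.52 and 7.09 in Sod2+/+ samples 17, 29, 33 and 37, and this was a log2 fold change of -0.75 ± 0.16 (SE), adjusted p = 0.0466. Its other 5 probe sets did not pass. Dhx15, the helicase that takes the spent spliceosome apart, and Prpf38a were at -0.31 and -0.34, and Prpf38b was at -0.00 (adjusted p = 0.997).

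**Figure D3:**
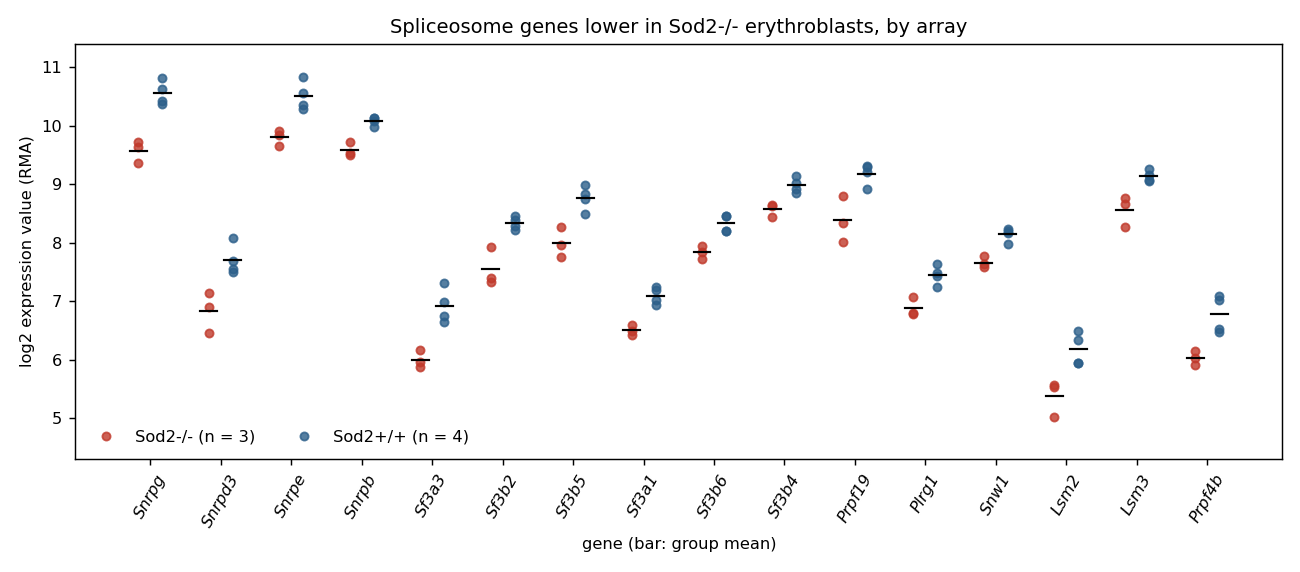
Log2 expression values of the 16 spliceosome genes past the threshold in each array, Sod2-/- (red, n = 3) left of Sod2+/+ (blue, n = 4), with bars at the group means. The genotypes do not overlap for any of the 16, and the means differ by 0.41 to 0.99.

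None of the 8 genes of the U4/U6 and U5 particles passed the threshold, and their median fold change was -0.30. Prpf8, the large U5 protein that lines the active site, had 8.40, 8.33 and 8.07 in Sod2-/- samples 31, 35 and 39, against 8.87, 8.74, 8.60 and 8.60 in Sod2+/+ samples 17, 29, 33 and 37. The genotypes did not overlap, and the difference was -0.43 ± 0.10 (SE) with adjusted p = 0.061. Eftud2, the U5 GTPase, was at -0.46 (adjusted p = 0.0845) and passed on 1 of its 4 probe sets, at -0.41. Ddx23, a helicase of U5 and the dimmest member with a mean log2 value of 4.47, had 0.05. Prpf3, Prpf4, Prpf6, Prpf18 and Prpf31 ran from -0.43 to -0.19.

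Within the rule U1 was measured by 3 genes, none past the threshold, with fold changes on both sides of 0. Snrnp70, a U1 gene whose symbol lies outside the rule, was at -0.28 (adjusted p = 0.256). Snrpc, the U1-C protein that steadies the pairing of U1 with the intron start, had -0.18 (adjusted p = 0.367). Prpf39 and Prpf40b, mouse relatives of yeast U1 proteins, had mean log2 values of 4.99 and 6.29 and fold changes of 0.16 and 0.09. After quantile normalization Snrpc was at 0.06, so its direction depended on the scaling. Whether the U1 genes differed from the other groups was not tested.

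Set against the mean of the Sod2+/+ samples, the 50 genes averaged -0.30, -0.51 and -0.42 in Sod2-/- samples 31, 35 and 39, and -0.06, 0.15, -0.12 and 0.02 in Sod2+/+ samples 17, 29, 33 and 37. Below that mean lay 43, 45 and 41 genes in the Sod2-/- samples, against 30, 7, 41 and 20 in the Sod2+/+ samples. Sod2+/+ sample 29 was thus high for most members and sample 33 low for most of them, and every Sod2-/- sample lay below all 4 on average. Sod2-/- sample 35 was the lowest array for the U2, Lsm and Prp19 groups and for the Sm ring. The averages over all genes lay between -0.06 and 0.02 in these arrays.

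**Figure D4:**
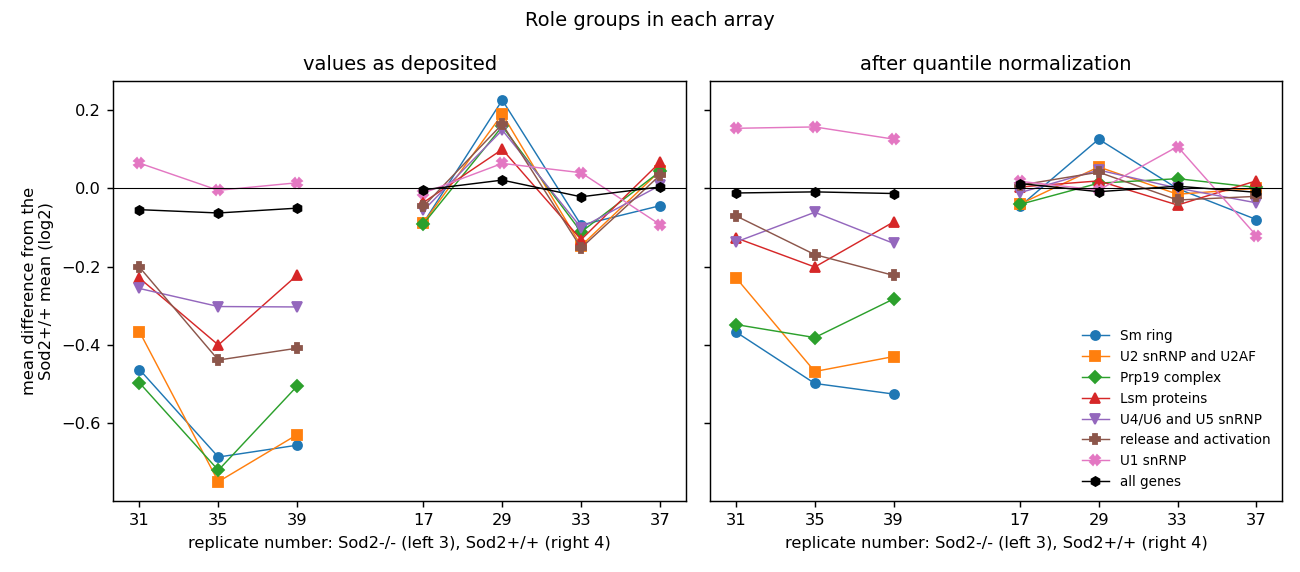
Mean difference (log2) of each role group from the Sod2+/+ mean, in each array, as deposited (left panel) and after quantile normalization (right panel), with all genes in black. As deposited, the Sm ring is at -0.46, -0.69 and -0.66 in Sod2-/- samples 31, 35 and 39 and at -0.09, 0.23, -0.09 and -0.04 in Sod2+/+ samples 17, 29, 33 and 37.

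Many members have more than 1 probe set, and these did not always agree. Of the 119 probe sets 28 were lower and 0 higher, against 2.83% lower of all 45037. For the 34 genes with several probe sets, 20 had fold changes on both sides of 0. The 69 probe sets that are not the brightest of their gene held 12 that were lower. Sf3a2, Snrpa1, Snrpb2 and Eftud2 passed on a dimmer probe set alone. A gene with several probe sets has more chances to pass, and the share of all genes passing this way was not counted. Besides Snrpd3 and Prpf19, disagreement was seen for Prpf4b (-0.75 to 0.05), Sf3b4 (-0.41 and 0.01), Sf3b5 (-0.77 to 0.19), Snw1 (-0.49 to 0.16) and Sf3b2 (-0.82 to 0.18). Of the 16 members, Snrpg, Snrpe, Snrpb, Sf3b5 and Prpf19 were read from probe sets whose suffix (_s_at or _x_at) marks probes that other transcripts may share. Except for Snrpe, each of these 5 also passed on a probe set without that suffix.

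The members lie on 15 chromosomes. On chromosome 17, which holds Sod2 (chr17:13007839-13018119 in GRCm38.p6), were 4 of them. These were Snrpc (chr17:27840028-27851968), U2af1 (chr17:31647081-31659148), Lsm2 (chr17:34981854-34985891) and Cdc5l (chr17:45391887-45433707). Of these, Lsm2 passed the threshold. The other 15 genes past it lie on other chromosomes.

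As a description, the promoters of the members were searched for short motifs of general promoter factors. RefSeq windows of GRCm38.p6, from 250 bases before to 50 after a transcript start, were at hand for 39 of the 50 members, 12 of them past the threshold, and in 28 of the 39 the start is also the first base of the gene. Both strands were searched, and no motif holds another. The ETS motif CCGGAAGT was found in 6 of 39 members (15.4%), against 4.31% of 27025 genes with a window. Those members were Prpf4b, Sf3a1, Sf3a3, Sf3b2 and Snrpe, all past the threshold, and Prpf6. CCAAT was found in 51.3% of members and 41.1% of genes, the GC box GGGCGGGG in 33.3% and 19.6%, the NRF1 motif GCGCATGC in 7.69% and 3.05%, the E-box CACGTG in 7.69% and 8.09%, and TATAAA in 5.13% and 15.7%. Of the 12 members past the threshold, 5 held the ETS motif, 6 CCAAT, 5 the GC box, 1 the NRF1 motif and 0 the E-box or TATAAA. No motif was tested against the calls, and the 27025 genes were not matched to the members in brightness. A match is a description of the letters and not evidence of binding. No factor's binding was measured in these samples.

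The 100 bases before the start are shown for 3 members with the ETS motif and 2 with CCAAT, chosen after their values were seen, to show lower genes of the Sm ring, U2, Prp19 and activation groups. They run 5′ to 3′ on the strand of the gene, and capitals mark the motif or, where it lies on the other strand, its complement. They are Sf3a3 (chr4:124714761-124714860, plus strand), Sf3b2 (chr19:5295458-5295557, minus strand) and Prpf4b (chr13:34875429-34875528, plus strand) for the ETS motif, and Snrpg (chr6:86371440-86371539, plus strand) and Prpf19 (chr19:10895131-10895230, plus strand) for CCAAT. For Prpf4b the transcript start is not the first base of the gene (chr13:34874820-34906064), and the bases shown lie within the gene.
Sf3a3: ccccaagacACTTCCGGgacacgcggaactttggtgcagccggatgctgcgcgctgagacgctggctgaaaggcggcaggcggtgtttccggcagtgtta
Sf3b2: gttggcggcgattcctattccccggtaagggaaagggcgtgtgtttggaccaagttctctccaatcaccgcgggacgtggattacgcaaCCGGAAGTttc
Prpf4b: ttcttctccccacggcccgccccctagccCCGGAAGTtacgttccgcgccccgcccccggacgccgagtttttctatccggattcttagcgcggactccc
Snrpg: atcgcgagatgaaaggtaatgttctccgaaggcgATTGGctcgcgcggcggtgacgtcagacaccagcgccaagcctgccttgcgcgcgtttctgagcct
Prpf19: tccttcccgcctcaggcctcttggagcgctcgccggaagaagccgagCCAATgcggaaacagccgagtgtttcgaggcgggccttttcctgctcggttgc
The first base in capitals, counted from the start, lay at -91 in Sf3a3, -71 in Prpf4b and -11 in Sf3b2 for the ETS motif. For CCAAT it lay at -66 in Snrpg and -53 in Prpf19. In Sf3a3 and Snrpg the motif is on the other strand.

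Splicing genes outside the rule were read from 6 lists, 135 of their 153 genes being measured. Of these, 13 were lower and 2 were higher, with a median fold change of -0.28. Over all genes the shares were 4.47% lower and 0.412% higher, so that 1 gene lower among 18 or 20 is a share near that of all genes. Of genes with mean log2 values from 6 to 8 and from 8 to 11, 12.2% and 12.8% were lower. The 13 of 135 are 9.63%, below both of these shares, and the 135 ranged in mean log2 value from 3.19 to 11.36. Without Sod2+/+ sample 37 none was lower, and without Sod2-/- sample 31 the count was 21. The other snRNP and spliceosome proteins had 5 lower of 55 and a median of -0.32, the hnRNP proteins, which coat pre-mRNA and steer splice site choice, 4 of 27 and -0.39, and the exon junction complex 1 of 9 and -0.26. The factors of snRNP assembly, cap and transport had 1 lower of 18 and a median of -0.16, and the minor spliceosome, which removes a rare class of introns, 1 of 9 and -0.21. The SR proteins and their kinases had 1 lower and 2 higher of 20 and a median of -0.18, which was 0.01 after quantile normalization.

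Among them Htatsf1, which helps U2 join the intron, was at -0.82 (adjusted p = 0.0293) and Phf5a, a partner of Sf3b1 in SF3B, at -0.60 (adjusted p = 0.0351). Clns1a, which hands Sm proteins to the assembly machinery, had 7.90, 7.47 and 8.14 in Sod2-/- samples 31, 35 and 39, against 8.56, 8.65, 8.48 and 8.77 in Sod2+/+ samples 17, 29, 33 and 37. It was lower by a log2 fold change of -0.78 ± 0.15 (SE), adjusted p = 0.0339, on a probe set of the _x_at kind. Of the hnRNP genes past the threshold, those with the largest changes were Hnrnpd at -0.76 (adjusted p = 0.0393) and Ptbp1, a repressor of exons, at -0.63 (adjusted p = 0.0393). Rbm8a of the exon junction complex and Scnm1 of the minor spliceosome were at -0.58 and -0.57 (adjusted p = 0.0327 and 0.0368).

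In the values as deposited, the only splicing genes that were higher were Clk1 and Clk4, 2 related kinases that phosphorylate SR proteins. After quantile normalization 5 of the 135 other splicing genes were higher and 8 lower, against 260 and 506 of all 18193 genes. Clk4 was named after its values were seen. Clk1 had 9.44, 9.39 and 9.38 in Sod2-/- samples 31, 35 and 39, against 8.59, 9.01, 8.64 and 8.76 in Sod2+/+ samples 17, 29, 33 and 37. All Sod2-/- values lay above all Sod2+/+ values (a log2 fold change of 0.65 ± 0.10 (SE), adjusted p = 0.0225). Its call was lost without Sod2+/+ sample 37 and without Sod2-/- sample 35 or 39, with an adjusted p of up to 0.076. For Clk4 the values were 7.51, 7.34 and 7.59 in Sod2-/- samples 31, 35 and 39, against 6.85, 7.16, 6.70 and 6.90 in Sod2+/+ samples 17, 29, 33 and 37. Again the genotypes did not overlap (a log2 fold change of 0.58 ± 0.11 (SE), adjusted p = 0.0357), and the call was kept in 1 of the 7 fits without an array, the adjusted p lying between 0.0336 and 0.0922 when single arrays were left out. Srsf9, an SR protein, was lower by a log2 fold change of -0.85 ± 0.13 (SE), adjusted p = 0.0225.

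**Figure D5:**
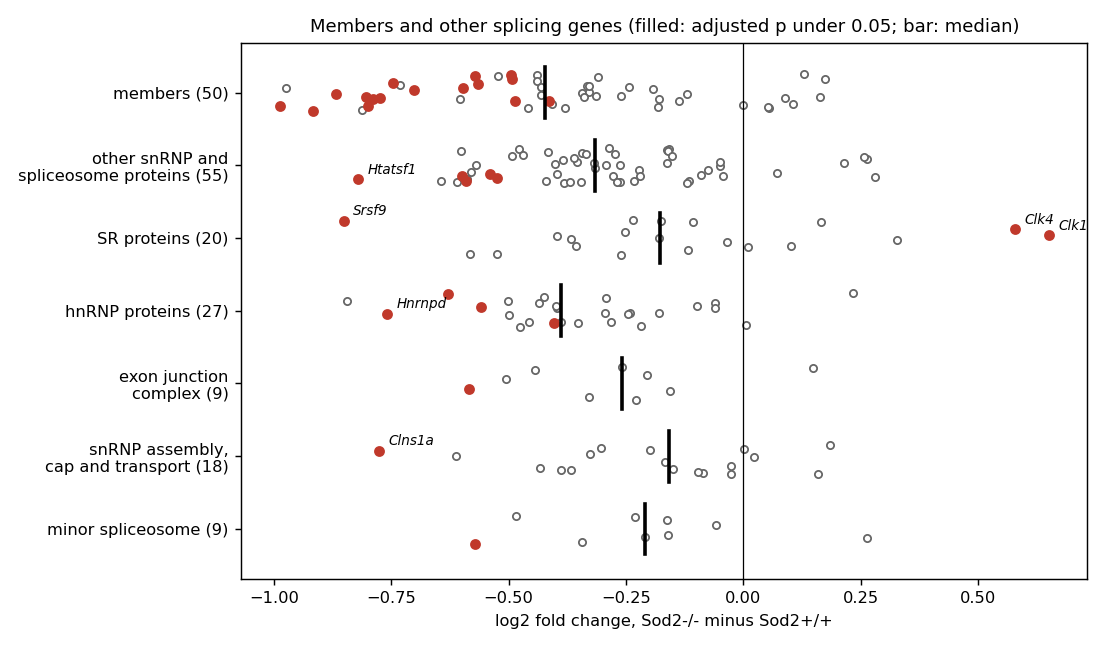
Log2 fold change (Sod2-/- minus Sod2+/+) of the 50 members and of 6 lists of other splicing genes, with the number of genes in brackets, bars at the medians and filled points at an adjusted p under 0.05. Clk1 and Clk4 are the only filled points above 0.

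Markers of some other cell types and 1 of 2 measures of RNA quality also differed between the genotypes. The sorted cells carried erythroblast markers at mean log2 values of 10.05 to 13.06, of which 9 of 14 were measured and none passed the threshold (median 0.06). Their summed linear level was 31830 to 34960 in Sod2-/- samples and 31520 to 32130 in Sod2+/+ samples. Of the 9, Alas2 (0.13) and Tfrc (0.20) were higher without overlap of the genotypes, a pattern seen in 7.19% of all genes. By flow cytometry the study reports a larger share of basophilic erythroblasts in Sod2-/- marrow. Of 14 B cell markers measured of 15 listed, 8 were lower, with a sum of 525 to 674 in Sod2-/- samples and 968 to 1163 in Sod2+/+ samples. The 14 neutrophil markers measured of 15 had mean log2 values of 7.08 to 12.85 and a median fold change of -0.87, with none past the threshold. Their sum was 17280 to 36850 in Sod2-/- samples and 36810 to 46270 in Sod2+/+ samples. Without Sod2-/- sample 35 that median was -0.45, and without sample 31 the count past the threshold was 11. By array their mean difference from the Sod2+/+ mean was -0.12, -1.42 and -0.81 in Sod2-/- samples 31, 35 and 39, an order that the 50 spliceosome genes also had. All 14 macrophage markers were measured and none passed, but their sum was 725 to 1733 in Sod2-/- samples and 920 to 1042 in Sod2+/+ samples. By array their mean difference was 0.03, -0.05 and 0.99 in Sod2-/- samples 31, 35 and 39, so that sample 39 alone was high. Of the markers of T and NK cells, megakaryocytes and stem cells, 0 of 9, 0 of 7 and 0 of 6 passed, with medians of 0.03, -0.07 and 0.08. The Gapdh control probe sets, 3′ minus 5′, averaged 1.14 in Sod2-/- and 1.32 in Sod2+/+ samples (log2). They did not overlap, at p = 0.0571 by an exact two-sided permutation test, the smallest that 3 against 4 arrays can give. Those of Actb averaged 0.724 in Sod2-/- and 0.746 in Sod2+/+ samples (exact permutation p = 0.857). The part of these differences in the spliceosome results was not tested.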

How the data were processed

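RNA of 7 sorted erythroblast samples had been hybridised to Affymetrix mouse whole-genome arrays. The deposited log2 values were made by the authors with robust multi-array averaging (RMA) in GeneSifter, and the submitters' notes also name GCOS 1.3.037. The sources do not say if RMA was run with the fourth Sod2-/- array. Fluidics station and chip lot were read from the settings deposited with each array, per the file headers. The values were used as deposited. Leaving out 64 control probe sets, 45037 were tested. Of these, 34945 match 1 gene in the platform annotation, 932 several and 9160 none.

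The genotypes were compared with limma 3.58.1 (lmFit, eBayes; R 4.3.3) on genotype alone. P-values were adjusted by the Benjamini-Hochberg method over every probe set tested, with a threshold of 0.05. The study used a t-test, which was an alternative here. Other alternatives were trend and robust estimation, array weights (statmod 1.5.0), quantile normalization, centring on the array median, an offset of 32 added to linear values, only the probe sets above the median brightness (log2 4.48), station or lot as a block, each station alone, the lot of the Sod2+/+ arrays alone, the mean of a gene's probe sets, fold minimums of 1.2 and 1.5, and leaving out each array. Named are all members past the threshold, the largest changes in groups with none, Sf3b1, U2af1 and Prpf8, members whose probe sets disagree, the brightest and dimmest member, and the 2 largest calls of each other list. Other members are named to complete their group. The members and lists were chosen with earlier results of these data known. The fit was tested on simulated data. RNA quality was compared by an exact permutation test in Python 3.11.15 with scipy 1.17.1. Precision is limited by the number of arrays.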

Additional observations from a re-analysis of the deposited data

Results flagged for a closer look

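Of 59 sets of values in the 4 Sod2+/+ samples that were checked, 2 had a sample far from the other 3. Chance marks about 1 in 20 such sets. For Rbm8a it was sample 29, with a log2 value of 9.135, against 8.849 to 8.872 in the other 3. For the mean difference of the Sm ring from the Sod2+/+ mean it was again sample 29, at 0.2256, against -0.0937 to -0.0442 in the other 3. Both values lie on the side away from the Sod2-/- samples. Without sample 29 the fold change was -0.51 for Rbm8a, -0.90 for Snrpg and -0.59 for Snrpe.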

How the results depend on the processing

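The 16 members lower in Sod2-/- erythroblasts became 9 after quantile normalization and 9 with fluidics station as a block, against 2.78% and 2.7% of all genes. With chip lot as a block they became 6, against 2.54% of all genes. The number was 2 with the offset of 32 and 10 at 1.5-fold. In station 2 alone it was 0, and 0 of all genes were lower. It was also 0 by either form of the methods' t-test, which called 2 or 0 of all genes lower. No count is given for station 1 alone or the lot of the Sod2+/+ arrays alone, where the only Sod2-/- array was sample 31 or sample 35. Leaving out single arrays gave 0 to 13. The count was 13 to 21 under array weights, trend and robust estimation, centring, the mean of a gene's probe sets (9 of its 14 shared with the 16) and bright probe sets alone. Of all genes 3.79% to 4.47% were lower in these fits, but 11.1% with bright probe sets alone, which gave the 21, and 0.649% with the offset. No alternative gave a member that was higher. The median fold change moved to -0.19 after quantile normalization and to -0.25 with the mean of a gene's probe sets, and lay between -0.50 and -0.35 otherwise. Direction turned for Ddx23 in station 1 alone (-0.14) and without Sod2-/- replicate 39 (leaving out arrays gave -0.029 to 0.185), for Prpf39 in station 2 alone (-0.10) and for Snrpc after quantile normalization (0.059), none past the threshold. The causes were not tested, and some of these fits also had fewer arrays. No paired analysis was possible because the genotypes share no replicate numbers. Some samples of both genotypes were sorted in parallel per the study's methods, but the labels do not say which. With 3 and 4 arrays and most adjusted p between 0.01 and 0.05, which single members pass is loosely determined. Dim members are measured near background.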
